A study of Mus musculus with 6 samples.

Results

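The mitochondrial respiratory chain and ATP synthase were described in mouse liver through 96 genes for their subunits, found among the 30889 rows of the deposited expression table. A gene was a member when its transcript types included protein_coding and its name began with Nduf (followed by a, b, c, s or v), Uqcr, Cox4 to Cox8, Atp5 or mt-, or was 1 of the 4 Sdh genes. Rows for 8 Ndufaf assembly factors and 13 pseudogenes were dropped. Of the 96, 83 are encoded in the nucleus and 13 in the mitochondrial genome. By gene name, complex I holds 45 members, complex II 4, complex III 9, and complexes IV and V 19 each. The transcript type was protein_coding alone for 35 members, and the other 61 list another type beside it. The mitochondrial genome's 22 transfer RNAs and 2 ribosomal RNAs did not meet the rule.

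Liver RNA was sequenced from mice treated for 14 days by the oral route. The extract group received a water extract of the herb Emilia sonchifolia (3 libraries) and the control group received phosphate buffered saline (3 libraries). Strain, sex, age and dose are not stated in the labels. Nor do they tie each library to its own animal, so a p-value here speaks of library-to-library spread, part of which can be technical.

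Oxidative phosphorylation makes most of a liver cell's ATP. Complexes I and II take electrons from NADH and succinate, complex III passes them through cytochrome c to complex IV, which reduces oxygen, and complex V (ATP synthase) uses the resulting proton gradient to make ATP. Complexes I, III, IV and V are built from subunits of both genomes, so their assembly needs messenger RNAs from the nucleus and from the mitochondrion, whereas complex II is wholly nuclear. The mitochondrial subunits form the electron-carrying and proton-moving cores in the membrane, and most nuclear subunits are small accessory proteins around them.

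The libraries held 52941399, 56603387 and 54748033 estimated counts in the extract group, against 51219533, 61432016 and 52021514 in the control group. edgeR's quasi-likelihood test called 4870 of 18071 genes at an adjusted p under 0.05, which is 26.9% (14.2% higher and 12.8% lower in the extract group), and 3237 without extract 2. All 96 members passed the filter on low counts. The 13 mitochondrial members took 3.94%, 3.79% and 3.897% of the counts in extract livers, against 3.52%, 3.62% and 3.65% in control livers. The 83 nuclear members took 0.799%, 0.789% and 0.798% in extract livers, against 0.826%, 0.866% and 0.865% in control livers. The mitochondrial share was thus higher, and the nuclear share lower, in each extract library than in any control library. Summed FPKM of the mitochondrial members divided by that of the nuclear members was 8.80 ± 0.102 in extract livers and 7.28 ± 0.150 in control livers (SD, n = 3 each). No test is given for this ratio, since with 3 libraries against 3 an exact two-sided permutation test cannot give a p below 0.1.

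The members did not move as 1 block. Among nuclear members 35 fell, 6 rose and 42 did not pass the test, with a median log2 fold change of -0.17, against -0.02 for all genes tested. Among mitochondrial members 6 rose, none fell and 7 did not pass, with a median of 0.10. A fall was thus called for 42.2% of the nuclear members, against 12.8% of all genes, and a rise for 46.2% of the mitochondrial members, against 14.2% of all genes. Calls were more frequent among abundant genes. Of 4881 tested genes averaging at least 5 FPKM, 45.8% were called, 27% higher and 18.9% lower. Of the 76 nuclear members at that level, 34 fell (44.7%) and 5 rose. The number of nuclear members that fell depended on single libraries. It was 10, 8 and 18 without extract 1, extract 2 and extract 3, 11 without control 2, and 38 and 25 without control 1 and control 3. With no filter on low counts 22 fell, and the calls of Cox7b, Cox8a, Sdhc and Uqcrb were among those lost (edgeR adjusted p = 0.0534, 0.0696, 0.0623 and 0.0505). The fall was called whichever library was left out for 7 members (Atp5h, Atp5j, Cox5b, Ndufa13, Ndufa2, Ndufb7 and Ndufs8), and the rise for 5 nuclear members (Atp5a1, Atp5b, Cox6b2, Ndufs1 and Sdhd) and 5 mitochondrial ones (mt-Atp8, mt-Nd1, mt-Nd4l, mt-Nd5 and mt-Nd6).

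**Figure D1:**
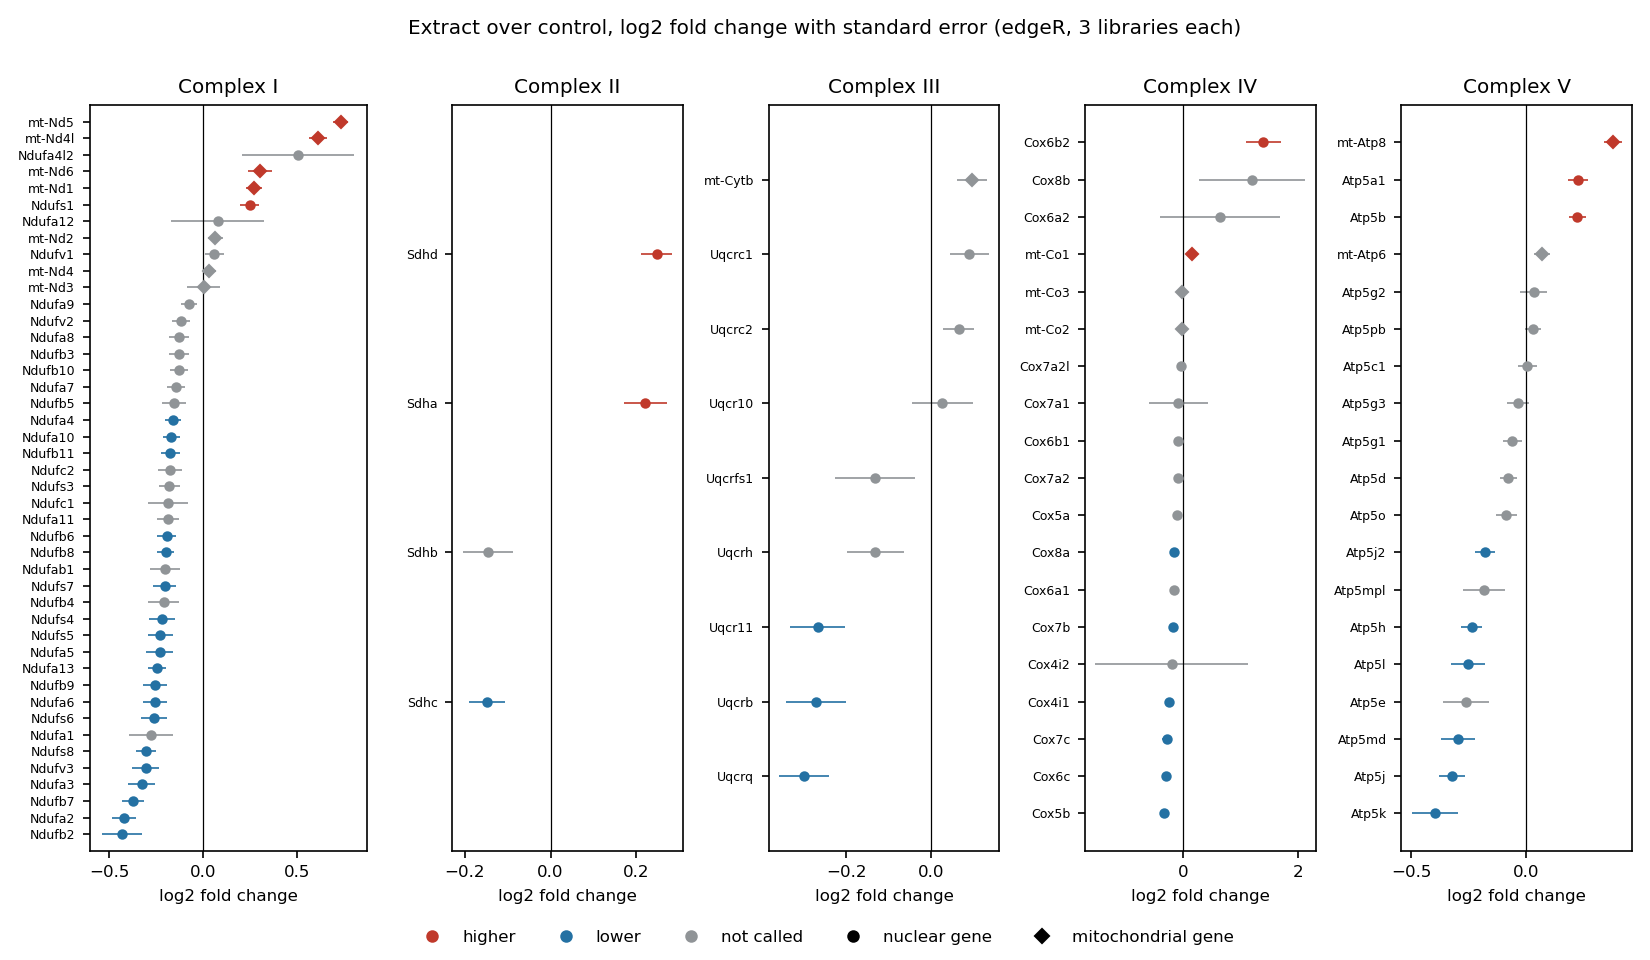
Log2 fold change of extract over control for the members, by complex, each with its standard error from edgeR (3 libraries each). Red marks members called higher, blue members called lower and grey those that did not pass; circles are nuclear genes and diamonds mitochondrial genes, and the horizontal scales differ between complexes. Most nuclear subunits lie left of 0, the mitochondrial genes mt-Nd5 and mt-Nd4l lie farthest right in complex I, and the medians stand at -0.17 for nuclear and 0.10 for mitochondrial members (-0.01 and 0.27 with the trend over transcript length removed).

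Fold changes in these libraries followed transcript length across all genes, and most nuclear members are short. Over 4365 other protein-coding genes of at least 5 FPKM, Spearman's correlation between transcript length and log2 fold change was 0.37, given as a description since genes of 1 library share its depth and RNA. The 459 of them with transcripts of up to 1000 bases had a median log2 fold change of -0.18, and 36.0% of them fell. The 1494 with transcripts over 3000 bases had a median of 0.14, and 44.6% of them rose. The nuclear members had a median transcript length of 809 bases, against 2302 for these other genes. Of the 51 nuclear members with up to 1000 bases, 25 fell and 1 rose (median -0.19). Of the 32 longer ones, 10 fell and 5 rose (median -0.12). Nuclear members of up to 600 bases had a median of -0.25, against -0.27 for other genes of that length, and those of 600 to 1000 bases -0.18, against -0.16. The 13 of 1000 to 1500 bases had -0.15, against -0.080, and the 10 of 1500 to 2000 bases 0.040, against -0.0092. The 5 of 2000 to 3000 bases had 0.22, against 0.065, and the 4 of 3000 to 5000 bases -0.18, against 0.11. In their medians, nuclear members of up to 1000 bases thus lay close to other genes of their length, and the few longest ones lay above or below them. Shares called were less alike. At 600 to 1000 bases 50% of nuclear members fell and 0% rose, against 33.2% and 9.38% of other genes. Up to 600 bases 47.6% fell and 4.76% rose, against 47.7% and 6.98%. The 4 mitochondrial members of up to 600 bases, by annotated gene length, had a median of 0.34. The short genes stood low in extract livers and high in control livers. Their median deviation from each gene's mean log2 FPKM was -0.12, -0.11 and -0.13 in extract 1, 2 and 3, against 0.052, 0.17 and 0.15 in control 1, 2 and 3.

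When the trend of each library over length was removed in edgeR, an alternative chosen after seeing the data, 13 nuclear members fell and 8 rose, and their median was -0.0070. In that fit 28.8% of 14614 genes were called, 10.6% higher and 18.1% lower. Of the 35 nuclear members that fell, 11 also fell with the trend removed, and 5 of the 6 that rose also rose. All 6 mitochondrial members that rose also rose there, where 12 of the 13 did, with a median of 0.27. The length used for mitochondrial members was that of the annotated gene, 204 bases for mt-Atp8 and 297 for mt-Nd4l. Both are read from a messenger RNA shared with a neighbour, so that RNA is longer. Their log2 fold changes went from 0.38 to 0.80 and from 0.61 to 0.96, and the mitochondrial values of this fit are uncertain. What produced the trend over length was not tested.

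**Figure D2:**
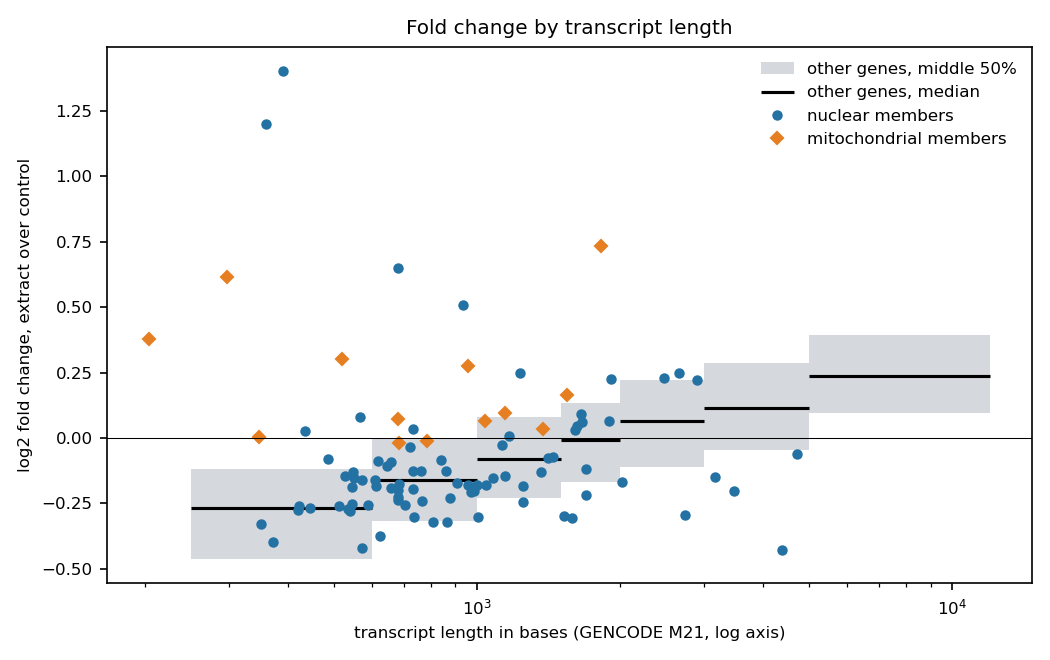
Log2 fold change (extract over control, edgeR) against transcript length in bases, on a log axis, for the 83 nuclear members (circles) and 13 mitochondrial members (diamonds). Mitochondrial members are placed by annotated gene length. The black steps and grey boxes give the median and middle 50% of other protein-coding genes of at least 5 FPKM, whose median climbs from -0.27 up to 600 bases to 0.24 over 5000 bases; the nuclear members of up to 1000 bases have medians of -0.25 and -0.18, near the steps, and mt-Atp8, mt-Nd4l and mt-Nd5 lie above them.

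Blood and immune cell markers also differed between the groups. Of 9 red cell markers tested, 8 fell, and the 10 summed to 198 to 236 FPKM in extract livers, against 1272 to 1618 FPKM in control livers. Of 10 leukocyte markers, 7 fell (summed 32.5 to 42.4 FPKM in extract livers, against 83.2 to 127 FPKM in control livers). All 8 Kupffer cell markers fell (summed 218 to 232 FPKM in extract livers, against 365 to 377 FPKM in control livers). Epb42 and Ermap were among the red cell markers at 0 in at least 1 library. Of 9 hepatocyte markers, 4 rose and 3 fell, and their sum was 47172 to 47533 FPKM in extract livers, against 47388 to 56271 FPKM in control livers. Of 8 pancreas markers none passed (summed 55.5 to 65.4 FPKM in extract livers, against 5.71 to 57.3 FPKM in control livers), with 6 of the 8 at 0 in at least 1 library, and of 3 fat markers tested 1 rose and 1 fell. The part of these cell types in the members' changes was not tested, and in bulk tissue fewer cells of a type and less RNA per cell cannot be told apart.

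Among the 7 mitochondrially encoded subunits of complex I, which form its membrane arm, 4 rose and 3 did not pass the test. mt-Nd5 had 866, 851 and 839.6 FPKM in extract livers, against 557, 522 and 524 FPKM in control livers. This gave a log2 change of 0.73 ± 0.041 (edgeR adjusted p = 1.98e-05), the largest rise of the 13; here and below a log2 change is extract over control, ± its standard error. mt-Nd4l had 1220.3, 1241 and 1182 FPKM in extract livers, against 876, 819 and 788 FPKM in control livers. For mt-Nd4l this was a log2 change of 0.61 ± 0.046 (edgeR adjusted p = 8.00e-05). In neither gene did the groups overlap. mt-Nd1 had 2455, 2370.1 and 2433 FPKM in extract livers, against 1995, 2124 and 2148 FPKM in control livers, a log2 change of 0.27 ± 0.043 (edgeR adjusted p = 0.00263). mt-Nd6 had 831, 792 and 809.6 FPKM in extract livers, against 626, 689 and 742 FPKM in control livers, a log2 change of 0.30 ± 0.064 (edgeR adjusted p = 0.0103). The lowest extract library stood above the highest control library for both. mt-Nd6 is the only one of the 13 on the opposite strand, and its annotated gene overlaps that of mt-Nd5 by 14 bases. The sources used here do not say whether counting used the strand, so reads of the 2 strands cannot be told apart. RNA running past the annotated end of mt-Nd5 was not examined, so the rise of mt-Nd6 is not shown to be separate from that of mt-Nd5. The effect of poly(A) selection on the mitochondrial values was not tested.

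The other 3 mitochondrial genes of complex I did not pass the test. mt-Nd2 had 1784, 1766 and 1781 FPKM in extract livers, against 1711, 1771 and 1831 FPKM in control livers (log2 change 0.066 ± 0.040, edgeR adjusted p = 0.268). mt-Nd4 had 1315, 1280.1 and 1269.7 FPKM in extract livers, against 1291, 1325 and 1325 FPKM in control livers (log2 change 0.033 ± 0.035, edgeR adjusted p = 0.5305). mt-Nd3 had 543, 513 and 556 FPKM in extract livers, against 484, 571 and 623 FPKM in control livers (log2 change 0.0038 ± 0.089, edgeR adjusted p = 0.9798). The ranges of the groups overlapped in all 3, and the sign for mt-Nd3 and mt-Nd4 changed with the scaling of the libraries.

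Of the remaining mitochondrial members, mt-Atp8 and mt-Co1 rose. mt-Atp8 had 3465, 3377 and 3475 FPKM in extract livers, against 2753, 2743 and 2777 FPKM in control livers. mt-Atp8 encodes a small membrane subunit of ATP synthase, and its log2 change was 0.38 ± 0.037 (edgeR adjusted p = 2.72e-04). mt-Co1 had 9240.1, 9058 and 8775 FPKM in extract livers, against 8379, 8446 and 8382 FPKM in control livers, a log2 change of 0.16 ± 0.035 (edgeR adjusted p = 0.0101). mt-Co1 is the catalytic subunit of complex IV and had the highest level per length of the 13 mitochondrial members in every library. Its groups did not overlap, but the edgeR adjusted p was 0.0575 without extract 1 and 0.0537 with a replicate block. With limma on log2(FPKM + 0.5) the adjusted p was 0.0658, and with quantile scaling of those values the log2 fold change of mt-Co1 was 0. mt-Cytb had 2754, 2665 and 2722 FPKM in extract livers, against 2611, 2695 and 2637 FPKM in control livers, a log2 change of 0.097 ± 0.035 (edgeR adjusted p = 0.0783). mt-Cytb, the cytochrome b of complex III, thus did not pass, and its groups overlapped. mt-Atp6 had 3166, 3068 and 3096 FPKM in extract livers, against 3015, 3142 and 3111 FPKM in control livers (log2 change 0.071 ± 0.036, edgeR adjusted p = 0.183). mt-Co2 had 2338, 2381 and 2524 FPKM in extract livers, against 2524, 2699 and 2441 FPKM in control livers (log2 change -0.019 ± 0.049, edgeR adjusted p = 0.812). mt-Co3 had 2495, 2427 and 2487 FPKM in extract livers, against 2522, 2675 and 2601 FPKM in control livers (log2 change -0.012 ± 0.038, edgeR adjusted p = 0.845). With limma on unfiltered log2(FPKM + 0.5) the calls were 2, mt-Nd5 and mt-Nd4l. There mt-Nd1, mt-Nd6, mt-Atp8 and mt-Co1 had adjusted p-values of 0.142, 0.0959, 0.0616 and 0.696. None of mt-Atp6, mt-Co2 and mt-Co3 passed in edgeR, and only in mt-Co3 did the FPKM ranges not overlap. Fold changes from edgeR, scaled by TMM, lay slightly above those read from FPKM: the median of the 13 was 0.10 in edgeR and 0.036 with limma on log2(FPKM + 0.5).

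**Figure D3:**
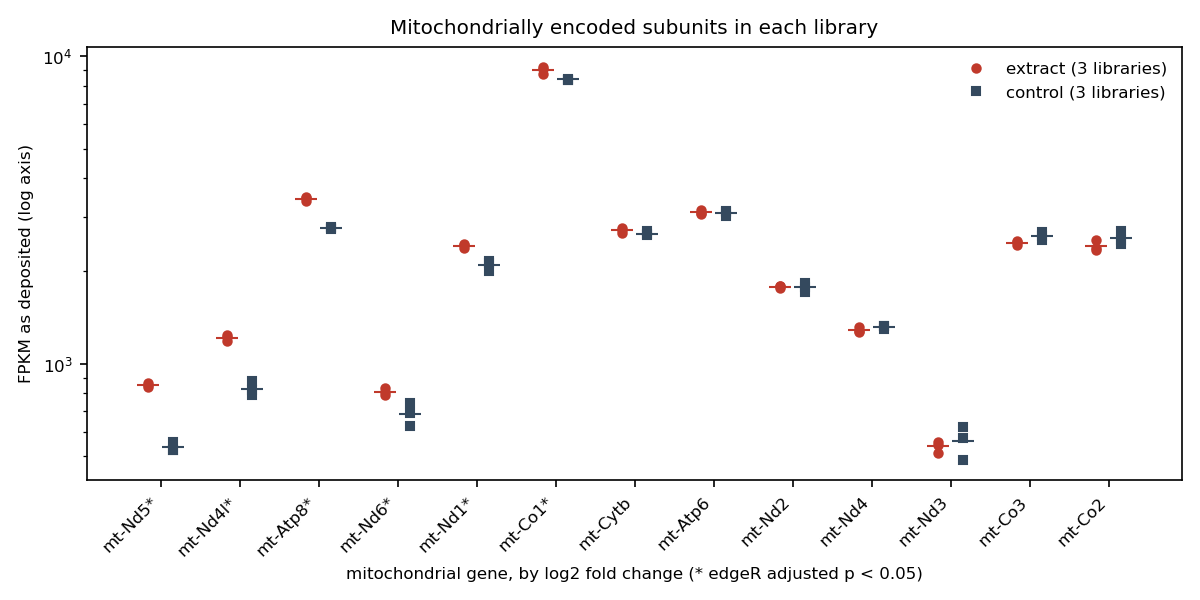
FPKM of the 13 mitochondrially encoded members in each library, on a log axis, with extract (circles) left of control (squares) for each gene and a line at the group mean. Genes are ordered by log2 fold change from mt-Nd5 (0.73) to mt-Co2 (-0.019); the 6 with an asterisk passed edgeR's test, and in them the extract libraries lie above the control libraries.

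Part of the mitochondrial genome has a nuclear copy on chromosome 1, listed in the same table as separate genes. Of the 13 members, 7 share more than 50% of their 50-base words with annotated transcripts of other genes. For 5 of them (mt-Co2, mt-Co3, mt-Atp6, mt-Nd4l and mt-Nd3) more than 90% of the words lie in 1 nuclear copy, and that copy's FPKM was 0.997 to 1.07 times the mitochondrial gene's in every library. Reads of these 5 cannot be told apart from those of the copy. The other 6 (mt-Nd1, mt-Nd2, mt-Nd5, mt-Nd6, mt-Cytb and mt-Atp8) share less than 10%, and 4 of them rose (mt-Nd1, mt-Nd5, mt-Nd6 and mt-Atp8). Copies outside annotated transcripts were not searched, so a low share does not show that the reads of these 6 are unique. Of the 7 that share more than 50%, 2 rose (mt-Nd4l and mt-Co1). The copy of mt-Nd4l rose with it (log2 fold change 0.61, edgeR adjusted p = 7.71e-05). Gm29216, a copy with 28.7% of mt-Co1's words, fell instead (-0.17, edgeR adjusted p = 0.0248). Its FPKM divided by mt-Co1's was 0.346 to 0.374 in extract livers, against 0.429 to 0.459 in control livers. The rise of mt-Co1 is thus not shown for its whole length.

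Neighbouring reading frames of the mitochondrial genome did not change by the same amount. In mammals mt-Atp8 and mt-Atp6 are read from 1 shared messenger RNA, as are mt-Nd4l and mt-Nd4, and in each pair the reading frames overlap. The 2 junctions are shown because the ratio across each of them differed between the groups. Capitals mark the bases that both genes claim, 43 in the first and 7 in the second, on the plus strand of GRCm38 with the gene bounds of GENCODE M21 (chrM:7910-7999 and chrM:10114-10203).
mt-Atp8/mt-Atp6: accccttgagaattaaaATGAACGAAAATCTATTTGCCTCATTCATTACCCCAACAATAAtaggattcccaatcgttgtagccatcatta
mt-Nd4l/mt-Nd4: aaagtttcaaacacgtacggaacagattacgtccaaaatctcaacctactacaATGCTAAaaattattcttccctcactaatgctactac
The FPKM of mt-Nd4l divided by that of mt-Nd4 was 0.928, 0.969 and 0.931 in extract livers, against 0.679, 0.618 and 0.595 in control livers. The FPKM of mt-Atp8 divided by that of mt-Atp6 was 1.09, 1.10 and 1.12 in extract livers, against 0.913, 0.873 and 0.893 in control livers. The FPKM of mt-Nd5 divided by that of mt-Cytb, its neighbour but one along the genome, was 0.314 ± 0.00545 in extract livers and 0.202 ± 0.0102 in control livers (SD, n = 3 each). For each of these 3 ratios the groups did not overlap, and since the pairs were picked after their values were seen, no test is given. Values also differed within mt-Nd4. Its nuclear copy Gm28439, which holds 62.2% of its words, rose (log2 fold change 0.30, edgeR adjusted p = 0.00155). That copy's FPKM divided by mt-Nd4's was 0.605 to 0.632 in extract livers, against 0.503 to 0.523 in control livers. Whether the difference starts at the printed junction was not tested. mt-Nd4l shares 98.8% of its words and mt-Nd4 62.2% with annotated nuclear copies, whereas mt-Atp6 shares 99.5% and mt-Atp8 none. A copy of mt-Atp8 outside annotated transcripts would not have been seen.

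**Figure D4:**
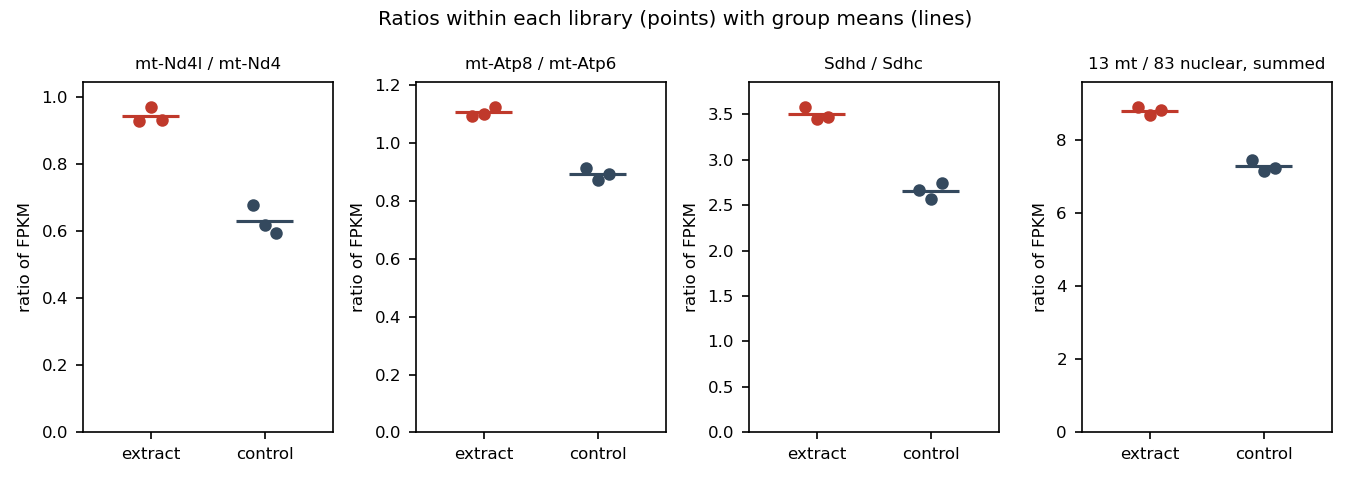
Ratios of FPKM within each library (points, 3 per group) with group means (lines), for mt-Nd4l over mt-Nd4, mt-Atp8 over mt-Atp6, Sdhd over Sdhc, and the 13 mitochondrial over the 83 nuclear members summed. In each panel the 3 extract libraries lie above the 3 control libraries, and means are 0.943 and 0.630, 1.11 and 0.893, 3.50 and 2.66, and 8.80 and 7.28 for extract and control.

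Of 38 nuclear members named for complex I, the NADH dehydrogenase, 19 fell, 1 rose and 18 did not pass, with a median log2 fold change of -0.19. The 38 include Ndufa4, which fell, and Ndufa4l2, which did not pass, and both are related to complex IV. With the length trend removed, 7 fell and 1 rose, and the median was -0.028. With all 45 members, 24 were called, and 11, 9, 14 and 10 without extract 1, extract 2, extract 3 and control 2. The 24 are 53.3%, against 26.9% of all genes and 45.8% of those of at least 5 FPKM. Accessory subunits made up 29 of these 38 members, and 16 of the 29 fell and none rose. These 16 are 55.2%, against 12.8% of all genes and 18.9% of those of at least 5 FPKM called lower. With the length trend removed, 7 of 29 fell (24.1%, against 18.1% of all genes). Of the 7 nuclear core subunits, which hold the flavin and the iron-sulfur clusters, 2 fell (Ndufs7 and Ndufs8) and 1 rose (Ndufs1). A difference between accessory and core subunits was not tested.

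Ndufa2 had 41.1, 43.6 and 40.6 FPKM in extract livers, against 54.1, 62.2 and 58.7 FPKM in control livers. Ndufa2 is an accessory subunit of the NADH-oxidising arm, and its log2 change was -0.42 ± 0.063 (edgeR adjusted p = 0.00219). Ndufb7 had 7.93, 7.81 and 7.76 FPKM in extract livers, against 9.83, 11.4 and 10.5 FPKM in control livers (chr8:83566671-83571626), a log2 change of -0.37 ± 0.059 (edgeR adjusted p = 0.00278). Ndufb7 belongs to the membrane arm. Ndufs8 had 27.9, 29.997 and 27.2 FPKM in extract livers, against 37.9, 36.7 and 34.9 FPKM in control livers (chr19:3908863-3912734), a log2 change of -0.30 ± 0.054 (edgeR adjusted p = 0.00459). Ndufs8 is a core subunit that carries iron-sulfur clusters. Ndufa13 had 31.2, 30.9 and 28.8 FPKM in extract livers, against 36.9, 38.7 and 36.8 FPKM in control livers (chr8:69894180-69902558), a log2 change of -0.25 ± 0.048 (edgeR adjusted p = 0.00729). All 4 were lower in every extract library than in any control library. With the length trend removed, Ndufs8 had an edgeR adjusted p of 0.0546, and the other 3 still passed. Ndufa13 lies within the annotated span of Yjefn3 on the same strand, so its counts are uncertain.

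Ndufs1 went the other way. Ndufs1 had 10.1, 9.85 and 9.21 FPKM in extract livers, against 8.97, 8.405 and 8.27 FPKM in control livers (chr1:63143596-63176822), a log2 change of 0.25 ± 0.052 (edgeR adjusted p = 0.00977). Ndufs1 is the largest core subunit and carries iron-sulfur clusters of the NADH-oxidising arm, and its transcript of 2661 bases is among the longest of the nuclear members. The core subunit Ndufv1, which binds the flavin, had a log2 fold change of 0.061 ± 0.050 and did not pass (edgeR adjusted p = 0.414). Ndufs1 itself passed with each library left out, but not with limma on unfiltered log2(FPKM + 0.5), where the adjusted p was 0.0802.

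Among accessory subunits that did not pass, 12 of 13 had a fold change below 0, and Ndufa12 alone lay above it. Ndufa12 had 8.24, 15.5 and 7.36 FPKM in extract livers, against 9.11, 11.4 and 10.1 FPKM in control livers, so its extract 2 value stood above all the others. Ndufa4, named for complex I but now placed in complex IV, fell by 0.16 ± 0.043 on the log2 scale (edgeR adjusted p = 0.0282), a call kept only without control 1. Its paralogue Ndufa4l2, known as a gene induced in low oxygen, did not pass (0.51 ± 0.30, edgeR adjusted p = 0.253) and was between 0.967 and 1.35 FPKM in extract livers, against 0.576 to 1.11 FPKM in control livers.

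Complex II, succinate dehydrogenase, also belongs to the tricarboxylic acid cycle, and its 4 subunits did not move together. Of the 4, 3 were called (75%, against 26.9% of all genes and 45.8% of those of at least 5 FPKM). Sdhd had 107, 109.7 and 104 FPKM in extract livers, against 93.1, 94.9 and 94.2 FPKM in control livers (chr9:50596357-50603812), a log2 change of 0.25 ± 0.037 (edgeR adjusted p = 0.00206). Sdhc had 30.1, 31.8 and 30.01 FPKM in extract livers, against 34.97, 37.02 and 34.3 FPKM in control livers (chr1:171127165-171150603), a log2 change of -0.15 ± 0.042 (edgeR adjusted p = 0.0326). These 2 proteins pair in the membrane to anchor the complex, and their messenger RNAs moved in opposite directions. Sdha had 66.4, 68.3 and 65.4 FPKM in extract livers, against 63.7, 59.4 and 55.9 FPKM in control livers (chr13:74322254-74350280), a log2 change of 0.22 ± 0.051 (edgeR adjusted p = 0.0141). Sdhb had 39.97, 41.4 and 35.3 FPKM in extract livers, against 45.9, 45.9 and 42.7 FPKM in control livers (chr4:140961203-140979193), a log2 change of -0.15 ± 0.059 (edgeR adjusted p = 0.105). Sdha, the flavoprotein that oxidises succinate, thus rose, and Sdhb, the iron-sulfur subunit beside it, did not pass, although its FPKM ranges did not overlap.

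The ratio of Sdhd to Sdhc FPKM was 3.57, 3.45 and 3.47 in extract livers, against 2.66, 2.56 and 2.75 in control livers. The ratio of Sdha to Sdhb FPKM was 1.66, 1.65 and 1.85 in extract livers, against 1.39, 1.29 and 1.31 in control livers. Neither ratio overlapped between groups, and these pairs too were picked after their values were seen. Sdhd was called with every library left out. Sdha was not called without extract 2 (edgeR adjusted p = 0.0595) or control 2 (0.0575), with limma on log2(FPKM + 0.5) (0.0633), or with the length trend removed (0.0625). Sdhc was called only without control 3, and with the length trend removed it fell (log2 fold change -0.24, edgeR adjusted p = 0.00469). The number of called subunits was 1 without extract 2 and 1 without control 2. All 4 were called with upper-quartile factors, with total counts only, on genes of at least 5 FPKM and with limma on quantile-scaled values, where Sdhb was lower (adjusted p = 0.0369 to 0.0486).

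Of the 9 members of complex III, 3 fell and 6 did not pass. The 3 called are 33.3%, against 26.9% of all genes and 45.8% of those of at least 5 FPKM. All 3 are small nuclear subunits without redox groups. Uqcrq had 81.3, 85.1 and 83.1 FPKM in extract livers, against 97.04, 111 and 112 FPKM in control livers (chr11:53427922-53430831), a log2 change of -0.30 ± 0.060 (edgeR adjusted p = 0.00776). Uqcrb had 64.3, 72.7 and 70.9 FPKM in extract livers, against 79.6, 93.7 and 88.4 FPKM in control livers (chr13:66900617-66905378), a log2 change of -0.27 ± 0.070 (edgeR adjusted p = 0.0241). Uqcr11 had 66.9, 61.4 and 65.8 FPKM in extract livers, against 75.3, 84.7 and 83.9 FPKM in control livers (chr10:80402997-80406830), a log2 change of -0.27 ± 0.064 (edgeR adjusted p = 0.0176). In all 3 the extract libraries lay below the control libraries. The core proteins Uqcrc1 (0.091 ± 0.046) and Uqcrc2 (0.066 ± 0.037) did not pass on the log2 scale (edgeR adjusted p = 0.184 and 0.226). Nor did Uqcrfs1, the Rieske iron-sulfur protein, with 63.2, 83.7 and 79.2 FPKM in extract livers, against 87.2, 85.6 and 85.5 FPKM in control livers (edgeR adjusted p = 0.346).

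The complex III calls were fragile. None were left without extract 1, and 1 each without extract 2 and control 2. Uqcrq lost its call without extract 1 (adjusted p = 0.0547), Uqcr11 without extract 1, extract 2 or control 2 (adjusted p up to 0.0739), and Uqcrb was called only without control 1. With the length trend removed, Uqcrq still fell (-0.26, edgeR adjusted p = 0.00848), whereas Uqcrb and Uqcr11 stood at -0.024 and 0.013.

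In complex IV, cytochrome c oxidase, 6 of the 10 nuclear subunits of the form used in liver fell and none rose. The 6 are 60%, against 12.8% of all genes and 18.9% of those of at least 5 FPKM called lower. The median log2 fold change of the 10 was -0.17 (0.02, with 1 lower and 1 higher, once the length trend was removed). Cox5b had 38.4, 38.5 and 36.5 FPKM in extract livers, against 45.4, 49.9 and 52.4 FPKM in control livers (chr1:36691449-36693681), a log2 change of -0.32 ± 0.060 (edgeR adjusted p = 0.00577). Cox6c had 20.6, 19.7 and 20.3 FPKM in extract livers, against 23.9, 26.2 and 27.8 FPKM in control livers (chr15:35925886-35938246), a log2 change of -0.30 ± 0.062 (edgeR adjusted p = 0.00924). Cox4i1 had 135, 135 and 136 FPKM in extract livers, against 155, 174 and 173 FPKM in control livers (chr8:120668222-120674207), a log2 change of -0.24 ± 0.051 (edgeR adjusted p = 0.00983). Cox4i1 is among the first nuclear subunits to join the mitochondrial core, and in all 3 genes the groups did not overlap. Cox7b had 69.4, 64.01 and 68.5 FPKM in extract livers, against 77.3, 80.1 and 81.3 FPKM in control livers, a log2 change of -0.18 ± 0.051 (edgeR adjusted p = 0.034000). Cox8a had 141, 140.5 and 132 FPKM in extract livers, against 154, 167 and 158 FPKM in control livers, a log2 change of -0.15 ± 0.044 (edgeR adjusted p = 0.0364). These 2 are single-helix membrane subunits, and the extract libraries were again below the control libraries.

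Cox7c was the other subunit to fall (-0.28 ± 0.084, edgeR adjusted p = 0.0416), a call kept only without control 1. It shares 53.0% of its words with annotated transcripts of other genes. Cox6a1 (-0.16 ± 0.052, edgeR adjusted p = 0.0506) lay just above the threshold. Cox5a (-0.11 ± 0.051), Cox6b1 (-0.087 ± 0.049) and Cox7a2 (-0.091 ± 0.057) did not pass either. Cox7a2l, which joins complexes III and IV into supercomplexes, stood at -0.028 ± 0.053 (edgeR adjusted p = 0.7399). Of the 19 members of complex IV, 8 were called, and 3, 3, 5 and 5 without extract 1, extract 2, extract 3 and control 2. The 8 are 42.1%, against 26.9% of all genes and 45.8% of those of at least 5 FPKM. Cox5b was called whichever library was left out. Cox6c lost its call without extract 2 (adjusted p = 0.0519), Cox4i1 without extract 1 or extract 2 (0.0611 and 0.0542), and Cox7b and Cox8a were called only without control 1. With the length trend removed, Cox5b alone of these 6 fell (edgeR adjusted p = 0.0336).

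Complex IV also has subunit forms typical of muscle, heart or testis, and 5 of them were members. Cox6b2, known from testis, was the nuclear member with the largest rise. Cox6b2 had 0.782, 0.941 and 0.984 FPKM in extract livers, against 0.437, 0.326 and 0.2901 FPKM in control livers (chr7:4751792-4753094), a log2 change of 1.40 ± 0.31 (edgeR adjusted p = 0.0115). Every extract library was above every control library. The level was low, with estimated counts of 58, 73 and 77 in extract livers, against 31, 29 and 21 in control livers. A few counts may come from 1 read pair, so the size of this rise is uncertain. Germ cell markers summed to 0.0348 to 0.127 FPKM in extract livers, against 0.0264 to 0.149 FPKM in control livers, with Ddx4 and Acrv1 at 0 in at least 1 library.

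The muscle forms varied with 1 control library. Cox6a2 had 4.22, 1.85 and 4.12 FPKM in extract livers, against 4.801, 2.02 and 0 FPKM in control livers, a log2 change of 0.65 ± 1.04 (edgeR adjusted p = 0.691). Cox8b had 2.87, 2.08 and 2.54 FPKM in extract livers, against 2.14, 1.21 and 0 FPKM in control livers, a log2 change of 1.201 ± 0.93 (edgeR adjusted p = 0.381). Cox7a1 had 1.33, 0.777 and 1.42 FPKM in extract livers, against 1.68, 1.78 and 0.4503 FPKM in control livers, a log2 change of -0.079 ± 0.51 (edgeR adjusted p = 0.929). All 3 were lowest in control 3, and none passed. The 10 skeletal muscle markers summed to 354, 253 and 303 FPKM in extract livers, against 272, 199 and 0.863 FPKM in control livers, with Myh1, Actn3, Pvalb and Mb at 0 in at least 1 library. The muscle markers thus stood at 0.863 FPKM in the same control 3 library, and their part in the values of the 3 muscle forms was not tested. Cox4i2, a form used in lung, was at 0.386 FPKM or less in every library.

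**Figure D5:**
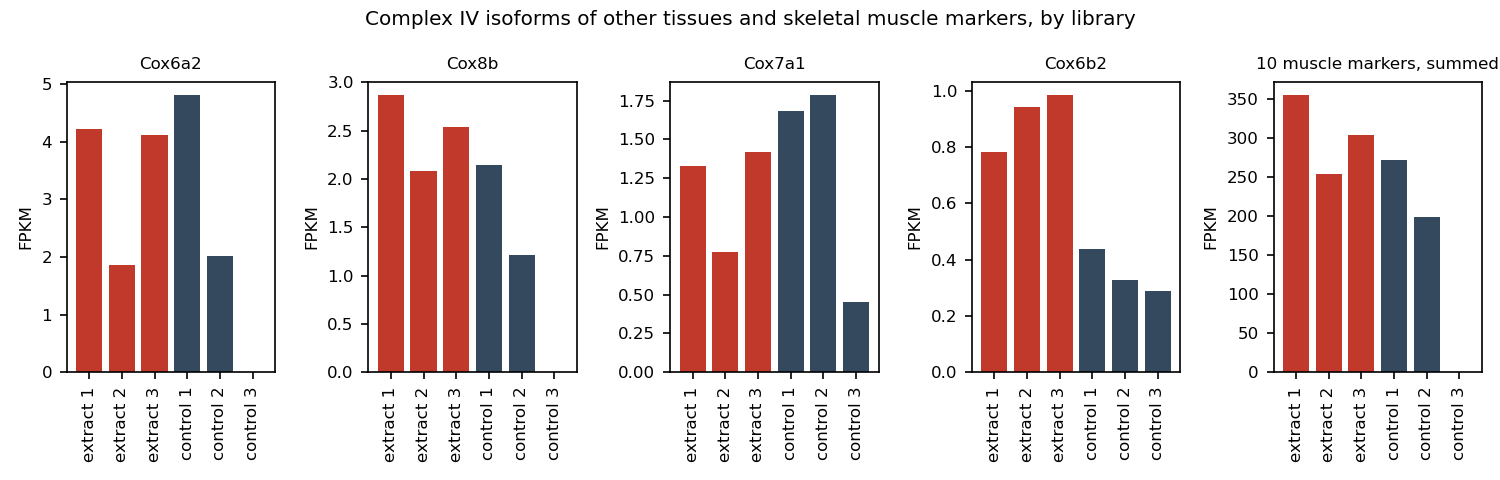
FPKM in each library (extract 1 to 3 left, control 1 to 3 right; bars from 0) of the muscle forms Cox6a2, Cox8b and Cox7a1, of Cox6b2, and of 10 skeletal muscle markers summed. The muscle forms and the muscle markers are lowest in control 3, where Cox6a2 and Cox8b are at 0, and Cox6b2 is higher in each extract library than in any control library.

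ATP synthase, complex V, did not move as a unit. In the catalytic head, the alpha subunit Atp5a1 and the beta subunit Atp5b rose, and the gamma, delta and epsilon subunits (Atp5c1, Atp5d and Atp5e) did not pass. Atp5b had 178, 179.9 and 174 FPKM in extract livers, against 163, 157 and 155 FPKM in control livers (chr10:128083273-128090391), a log2 change of 0.22 ± 0.035 (edgeR adjusted p = 0.00273). Atp5a1 had 188, 190.1 and 181 FPKM in extract livers, against 174, 164 and 159 FPKM in control livers, a log2 change of 0.23 ± 0.044 (edgeR adjusted p = 0.00648). The extract libraries stood above the control libraries in both. The 3 genes for the c subunit of the proton-driven ring, Atp5g1, Atp5g2 and Atp5g3, had log2 fold changes of -0.060 ± 0.041, 0.033 ± 0.059 and -0.035 ± 0.050, and none passed (edgeR adjusted p = 0.331, 0.722 and 0.654).

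The peripheral stalk holds the head against rotation, and 2 of its 4 subunits fell (50%, against 12.8% of all genes). Atp5j had 22.7, 23.9 and 23.4 FPKM in extract livers, against 28.2, 31.4 and 31.8 FPKM in control livers (chr16:84827866-84835625), a log2 change of -0.32 ± 0.056 (edgeR adjusted p = 0.00432). Atp5h had 64.5, 68.2 and 62.8 FPKM in extract livers, against 77.5, 80.97 and 81.9 FPKM in control livers (chr11:115415689-115419962), a log2 change of -0.24 ± 0.044 (edgeR adjusted p = 0.00592). In both the highest extract library was below the lowest control library. The other 2 stalk subunits, Atp5pb and Atp5o, stood at 0.032 ± 0.035 and -0.085 ± 0.048 and did not pass (edgeR adjusted p = 0.551 and 0.229). Of 5 small membrane subunits, several of which help ATP synthase form dimers, 4 fell (Atp5j2, Atp5k, Atp5l and Atp5md) and none rose. The 4 are 80%, against 12.8% of all genes and 18.9% of those of at least 5 FPKM called lower. Atp5j2 had 23.97, 24.3 and 22.5 FPKM in extract livers, against 27.9, 28.8 and 26.9 FPKM in control livers (chr5:145183698-145192062), a log2 change of -0.18 ± 0.043 (edgeR adjusted p = 0.01705). For Atp5k, Atp5l and Atp5md the log2 fold changes were -0.40 ± 0.10, -0.25 ± 0.075 and -0.30 ± 0.076. Atp5l shares 84.8% of its words with annotated transcripts of other genes.

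Of the 19 members of complex V, 9 were called, and 5 each without extract 1, extract 2 and control 2. The 9 are 47.4%, against 26.9% of all genes and 45.8% of those of at least 5 FPKM. Atp5a1, Atp5b, Atp5h and Atp5j were called whichever library was left out, and Atp5j2 only without control 1 or control 3. With the length trend removed, Atp5a1, Atp5b and Atp5j kept their calls (edgeR adjusted p = 0.0157, 0.00255 and 0.03001), and Atp5h and Atp5j2 did not (0.557 and 0.493). Of the 5 small membrane subunits only Atp5md then fell (-0.37, edgeR adjusted p = 0.00948), with Atp5k at -0.080 and Atp5l at -0.0073. Atp5k, Atp5md and Atp5l each lost the call with 4 of the 6 libraries left out in turn (adjusted p up to 0.0916, 0.0915 and 0.129). With limma on unfiltered log2(FPKM + 0.5), Atp5a1 had an adjusted p of 0.0725. Atp5j overlaps Gabpa by 701 bases on the opposite strand, so reads in that stretch cannot be assigned without strand.

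FPKM levels should not be read from one nuclear gene to another here. In 95.7% of genes with several transcripts the length behind the deposited FPKM was within 2% of all annotated exons merged, and for 29 nuclear members it was over 2 times the length of the protein-coding transcript. Several members described above also overlap another annotated gene on the opposite strand (Ndufa2 with Tmco6, Ndufs1 with Ino80dos, Cox4i1 with Emc8, Cox6c with Vps13b, Uqcrb with Gm10767, Sdha with Gm16125 and Atp5a1 with Haus1), and without strand their reads cannot be told apart there. The merged length does not touch fold changes of 1 gene between groups, nor the single-exon mitochondrial genes.

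The start sites of nuclear members carry motifs known from mitochondrial genes. RefSeq promoter windows of GRCm38.p6, from 250 bases before to 50 after a start, matched 68 of the 83 nuclear members (73 windows of 32851). The NRF1 motif, GCGCA and GCGC with any 1 base between them, searched on both strands as all others, was in 24.7% of member windows, against 4.60% of all windows. The ETS motif CCGGAAG, bound by the GABP factor, was in 23.3%, against 8.86%. The YY1 motif AAGATGGCG was in 9.59%, against 1.40%, and the ERR motif TCAAGGTCA in 2.74%, against 0.423%. Of the 17 genes with an NRF1 match, 6 fell and 2 rose, and of the 17 with an ETS match, 10 fell and 1 rose. Of the 7 genes with a YY1 match, 5 fell and none rose, and of all 68 matched members 28 fell and 4 rose. A match is a description of the letters and not of binding.

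Windows of 3 members are shown because each holds several matches to these motifs and because 2 of the genes rose (Sdhd and Sdha) and 1 fell (Atp5h). Each is 300 bases, read 5′ to 3′ on the gene's own strand, which is the minus strand in all 3, and capitals mark motif matches on either strand, which do not overlap. They lie at chr9:50603800-50604099 for Sdhd, chr13:74350191-74350490 for Sdha and chr11:115419870-115420169 for Atp5h.
Sdhd: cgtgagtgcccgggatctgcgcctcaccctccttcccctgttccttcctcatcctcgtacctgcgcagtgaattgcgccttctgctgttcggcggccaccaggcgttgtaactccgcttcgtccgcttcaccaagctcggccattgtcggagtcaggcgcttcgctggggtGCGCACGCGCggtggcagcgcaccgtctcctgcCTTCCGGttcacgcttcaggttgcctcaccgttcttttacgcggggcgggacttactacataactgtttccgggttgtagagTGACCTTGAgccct
Sdha: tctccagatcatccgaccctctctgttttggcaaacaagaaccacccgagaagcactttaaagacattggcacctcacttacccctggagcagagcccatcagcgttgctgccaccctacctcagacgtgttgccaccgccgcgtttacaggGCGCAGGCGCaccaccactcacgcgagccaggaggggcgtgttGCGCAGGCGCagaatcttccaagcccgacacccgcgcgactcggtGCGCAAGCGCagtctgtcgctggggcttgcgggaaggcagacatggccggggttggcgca
Atp5h: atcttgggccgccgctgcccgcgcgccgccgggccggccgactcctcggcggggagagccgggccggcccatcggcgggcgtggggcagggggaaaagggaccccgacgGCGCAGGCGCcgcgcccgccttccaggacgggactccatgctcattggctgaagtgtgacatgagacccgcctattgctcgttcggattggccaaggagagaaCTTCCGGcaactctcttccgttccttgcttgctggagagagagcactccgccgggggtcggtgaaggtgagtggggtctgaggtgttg
The Sdhd window holds an NRF1, an ETS and an ERR match in that order, the Sdha window 3 NRF1 matches, and the Atp5h window an NRF1 and then an ETS match. Sdhd and Sdha rose, whereas Atp5h, with NRF1 and ETS matches as in Sdhd, fell. Atp5k, not shown, also had an NRF1 and an ETS match and fell.

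Among 14 nuclear regulators of mitochondrial genes, 4 rose and 4 fell (57.1%, against 26.9% of all genes). Ppargc1a had 1.33, 1.24 and 1.22 FPKM in extract livers, against 2.67, 2.23 and 2.42 FPKM in control livers, a log2 change of -0.89 ± 0.090 (edgeR adjusted p = 3.20e-04). Ppargc1a encodes PGC-1alpha, a coactivator of genes for oxidative phosphorylation, and its relatives Pprc1 and Ppargc1b also fell (-0.62 ± 0.12 and -0.65 ± 0.16). Ppara had 23.7, 23.1 and 25.4 FPKM in extract livers, against 13.4, 11.2 and 10.01 FPKM in control livers, a log2 change of 1.12 ± 0.10 (edgeR adjusted p = 2.07e-04). Ppara is a nuclear receptor for fatty acids that governs fat oxidation in liver. Neither gene's groups overlapped. Gabpa, which binds the ETS motif, rose by 0.31 ± 0.064 on the log2 scale (edgeR adjusted p = 0.00923). Nrf1 itself was at 0.569, 0.618 and 0.794 FPKM in extract livers, against 0.667, 0.719 and 0.662 FPKM in control livers, and did not pass (edgeR adjusted p = 0.932).

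Of 30 genes for the expression of mitochondrial DNA, 6 rose and 1 fell, which is 23.3% and near the 26.9% of all genes. Lrpprc had 9.89, 9.74 and 9.42 FPKM in extract livers, against 8.101, 7.13 and 7.04 FPKM in control livers, a log2 change of 0.44 ± 0.062 (edgeR adjusted p = 0.00153). Slirp had 2.83, 3.02 and 2.78 FPKM in extract livers, against 3.997, 4.82 and 4.896 FPKM in control livers, a log2 change of -0.61 ± 0.094 (edgeR adjusted p = 0.00248). Lrpprc and Slirp form a complex that stabilises mitochondrial messenger RNAs, and the 2 genes moved in opposite directions with no overlap of the groups. Pnpt1, an RNA-degrading enzyme of mitochondria, and Fastkd5, which acts in the processing of mitochondrial RNA, rose (0.46 ± 0.084 and 0.45 ± 0.11). Fastkd5 was not called without extract 2 or extract 3 (adjusted p = 0.0576 and 0.068998). Tfam, which packages and transcribes mitochondrial DNA, had 7.07, 6.397 and 6.65 FPKM in extract livers, against 5.73, 6.11 and 6.201 FPKM in control livers. Its log2 fold change of 0.22 ± 0.064 passed (edgeR adjusted p = 0.0366), but not without extract 1, extract 3, control 1 or control 2 (adjusted p up to 0.0959) nor with the length trend removed (0.442).

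Of 53 assembly factors tested, 6 rose and 3 fell, which is 17.0%, against 26.9% of all genes. Sco2 had 2.05, 2.09 and 1.58 FPKM in extract livers, against 4.71, 4.15 and 5.11 FPKM in control livers, a log2 change of -1.23 ± 0.16 (edgeR adjusted p = 0.00113). Sco2 delivers copper to complex IV, and its extract libraries lay far below the control libraries. Cox10, which makes the heme a of complex IV together with Cox15, rose by 0.60 ± 0.10, Taco1, an activator of mt-Co1 translation, by 0.40 ± 0.076, and Coa5 by 0.27 ± 0.052 on the log2 scale (edgeR adjusted p = 0.00439, 0.00641 and 0.00684).

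Of 21 electron carriers and coenzyme Q genes, 1 rose and 2 fell, which is 14.3%, against 26.9% of all genes. Gpd2 had 4.67, 4.27 and 4.56 FPKM in extract livers, against 2.49, 2.21 and 2.39 FPKM in control livers, a log2 change of 0.99 ± 0.074 (edgeR adjusted p = 7.74e-05). Gpd2 passes electrons from cytosolic glycerol phosphate to coenzyme Q, and the groups lay apart. Etfb, of the flavoprotein that carries electrons from fat oxidation, fell (-0.30 ± 0.053, edgeR adjusted p = 0.00439), as did Coq8a, of coenzyme Q synthesis (-0.30 ± 0.068, edgeR adjusted p = 0.0132). The Coq8a call was lost without extract 1, extract 2 or control 2 (adjusted p up to 0.0659). Cycs, which is cytochrome c, and Cyc1, the cytochrome of complex III that the naming rule left out, stood at -0.094 ± 0.046 and 0.0034 ± 0.041 and did not pass (edgeR adjusted p = 0.174 and 0.961).

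Genes of the tricarboxylic acid cycle, which supplies NADH and succinate, included 7 of 18 that rose and none that fell. The 7 are 38.9%, against 14.2% of all genes and 27% of those of at least 5 FPKM called higher. Once the length trend was removed, 3 of 18 rose and 1 fell, which is 22.2%, against 28.8% of all genes. Sucla2 had 23.9, 25.04 and 24.3 FPKM in extract livers, against 19.9, 18.7 and 19.96 FPKM in control livers, a log2 change of 0.38 ± 0.047 (edgeR adjusted p = 8.43e-04). Sucla2 is a subunit of the ligase that makes succinate, and each extract library was above each control library. Idh3a and Dlst rose by 0.36 ± 0.081 and 0.27 ± 0.062 on the log2 scale. Both lost their calls without control 2 (adjusted p = 0.0542 and 0.0613).

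Of 14 uncoupling proteins and carriers, 6 rose and 1 fell (50%, against 26.9% of all genes and 45.8% of those of at least 5 FPKM). Ucp2 had 4.04, 3.87 and 4.14 FPKM in extract livers, against 6.83, 7.32 and 6.66 FPKM in control livers, a log2 change of -0.73 ± 0.056 (edgeR adjusted p = 9.30e-05). Ucp2 is a carrier of the inner membrane that in liver is known mainly from Kupffer cells, whose 8 markers all fell too; the part of those cells in its value was not tested. Slc25a13 had 46.7, 48.97 and 44.3 FPKM in extract livers, against 35.1, 35.8 and 37.3 FPKM in control livers, a log2 change of 0.43 ± 0.047 (edgeR adjusted p = 4.36e-04). Slc25a13 and Slc25a12, both aspartate-glutamate carriers, and Slc25a10, the dicarboxylate carrier, rose (0.43 ± 0.047, 0.45 ± 0.068 and 0.43 ± 0.039). Atpif1, the inhibitor of ATP synthase, was picked after its values were seen. Atpif1 had 12.4, 11.97 and 11.9 FPKM in extract livers, against 9.23, 10.9 and 8.74 FPKM in control livers, a log2 change of 0.40 ± 0.082 (edgeR adjusted p = 0.00937).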

How the data were processed

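Poly(A) RNA of 6 mouse liver libraries was selected on oligo(dT) beads and sequenced (per the labels' protocols). Tools in the submitters' processing notes are StringTie 1.3.4d, HISAT2 2.0.4, cutadapt 1.9 and edgeR, without settings. Neither genome build nor strandedness was stated, but all 96 member identifiers are in GENCODE M21 (GRCm38), 80 with the same coordinates. Estimated counts of each gene were deposited as whole numbers, per the file headers, and their low values peak at 4 (6292 entries, against 5334 at 1), so a few counts may come from 1 read pair. FPKM was deposited by the authors, per the file headers. Another 6 columns of per-sample values match no sample and were not used.

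edgeR 4.0.16 (R 4.3.3) tested extract against control on all rows kept by filterByExpr, with TMM factors, two-sided, Benjamini-Hochberg adjustment and a threshold of 0.05. Standard errors came from the fold change and F statistic. Values printed by library are FPKM. The number of counts limits the precision of low genes, and intervals across libraries cover only their spread. Replicate numbers did not pair the libraries: same-numbered libraries had correlations of -0.12, -0.028 and -0.089. Alternatives were DESeq2 1.42.0, limma 3.58.1 on log2 FPKM, other scalings and filters, a replicate block, each library left out, and removal of the trend over transcript length. The edgeR, DESeq2 and limma fits were tested on simulated data. Members, gene lists and cell type markers were chosen with earlier results of these data known, and the grouping of subunits by role was made after their values were seen. Members described by library are the 13 mitochondrial ones, the 4 Sdh genes, the tissue forms of complex IV, and in each complex the called nuclear member with the smallest p in each direction and up to 3 more. Up to 4 genes with the smallest p are named per pathway list, plus Ppargc1a and Tfam. Members described outside this rule were chosen after their values were seen. Results for 3 genes, 1 of them a member, are not reported here.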

Additional observations from a re-analysis of the deposited data

How the results depend on the processing

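Of the 28 members called and described by library, 17 kept their call and sign under all 15 planned settings other than leaving out a library, and 17 were called with each of the 6 libraries left out. The count of nuclear members called lower was 22 with no filter on low counts and 13 with the length trend removed, and that of nuclear members called higher 3 with limma on unfiltered FPKM. The count of mitochondrial members called was 2 with limma on unfiltered FPKM and 12 with the length trend removed, where their length was that of the annotated gene. Complex I held 14 called members with the length trend removed, and complex IV 5 with no filter on low counts. Genes called in all were 2707 of 5165 in a fit on genes of at least 5 FPKM only. The cause of these differences was not tested.

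The median log2 fold change of nuclear members was -0.22 with total counts only and with each of 4 limma settings (pseudocounts of 0.5, 0.1 and 1, and no filter), and -0.0070 with the length trend removed. The median of mitochondrial members was 0.055 with upper-quartile factors, 0.048 with total counts only, 0.068 on genes of at least 5 FPKM, 0.036 with the same 4 limma settings and 0.27 with the length trend removed. On summed FPKM in place of counts, the share in extract minus that in control was 1.02 percentage points for mitochondrial and -0.087 for nuclear members.

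Leaving out 1 library at a time gave 3237 to 4706 genes called, 8 to 38 nuclear members lower, 5 to 6 higher and 5 to 6 mitochondrial members called. Called members ranged over 9 to 25 in complex I, 1 to 3 in complex II, 0 to 4 in complex III, 3 to 9 in complex IV and 5 to 10 in complex V. The medians ranged over -0.19 to -0.14 for nuclear and 0.088 to 0.12 for mitochondrial members.

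The sign changes listed first are those of the members described by library. With the length trend removed, log2 fold changes turned positive for Cox6a1 (0.070), Cox6b1 (0.13), Cox7a1 (0.16), Cox7a2 (0.11), Cox8a (0.088), Uqcr11 (0.013), mt-Co2 (0.18) and mt-Co3 (0.16). Cox7a1 was also positive with limma at a pseudocount of 0.1 (0.014), with TMM factors on FPKM (0.013) and with quantile scaling (0.043). mt-Atp6 was -0.088 with quantile scaling. mt-Nd3 was -0.038 with upper-quartile factors, -0.046 with total counts only, -0.025 on genes of at least 5 FPKM, -0.00031 with counts divided by 4 and -0.051 with the 4 limma settings. mt-Nd4 was -0.0094 with upper-quartile factors, -0.016 with total counts only and -0.028 with the 4 limma settings. With 1 library left out, the sign also turned for Cox4i2 (range -1.95 to 0.40), Cox7a1 (-0.47 to 0.20), mt-Co2 (-0.060 to 0.021), mt-Co3 (-0.032 to 0.013) and mt-Nd3 (-0.089 to 0.098). None of these members passed the test except Cox8a and Uqcr11. Other members also turned positive with the length trend removed, among them Ndufa4 (0.060) and Ndufb6 (0.012), which fell in the main fit.

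The replicate numbers did not pair the libraries, and a fit with the number as a replicate block called 23 nuclear members lower and 5 members of complex IV; Cox7a1 stood at 0.045 there. With 3 libraries a group, a member that did not pass is not shown to be unchanged.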
